A study of Mus musculus with 17 samples.

Results

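Feedback regulators and feedback-controlled outputs of the RAS, RAF, MEK and ERK kinase pathway were followed in mouse liver, as 10 of the 52545 genes in the deposited table. They were taken by symbol: the dual-specificity phosphatase genes Dusp1, Dusp4, Dusp5 and Dusp6, the Sprouty genes Spry1, Spry2 and Spry4, the Sprouty-related gene Spred1, and the ETS transcription factor genes Etv4 and Etv5. The series asked what treatment with a monoclonal antibody to claudin-1 (CLDN1), a protein of tight junctions that liver cells also expose elsewhere on their surface, does to the liver transcriptome in a mouse model of diet-driven liver disease and liver cancer. Each of its 17 libraries came from the liver tissue outside tumours of a single male C57BL/6J mouse aged 32 weeks.

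The CLDN1 mAb group had 6 mice, the vehicle group 6 and the regular diet group 5. CLDN1 mAb mice had received 100 mg/kg of the liver carcinogen diethylnitrosamine (DEN) once in week 1, were fed CDA-HFD, a high-fat diet that lacks choline and has a defined amino acid content, and were injected into the peritoneum once a week for 16 weeks with 500 µg of the antibody. Vehicle mice had the same carcinogen, diet and injection schedule, with PBS in place of the antibody. Regular diet mice were untreated. Carcinogen, diet and injections therefore came together, and their effects against regular diet cannot be told apart. The library codes of the regular diet mice, 31 to 35, form a block of their own, so a laboratory step tied to that block cannot be told apart from the group either.

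ERK is a kinase activated by growth factor receptors through RAS, RAF and MEK, and it drives the transcription of genes that in turn restrain it. DUSP phosphatases remove the activating phosphates from ERK and related kinases, Sprouty and SPRED proteins act between the receptor and RAF, and ETV4 and ETV5 are transcription factors downstream of ERK that also activate target genes. In liver the pathway is known for its part in regeneration and in carcinogen-driven tumour growth, and Dusp1 is also known as an immediate early gene of stress and glucocorticoid signalling.

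The sequences just before the start sites of Dusp1, Dusp5 and Dusp6 are shown because the results below turn on these 3 phosphatase genes: against regular diet Dusp1 was lower, Dusp5 was higher and Dusp6 did not pass the test. Each is the stretch from 250 to 51 bases before the RefSeq start site on build GRCm38.p6, written 5′ to 3′ on the gene's own strand, at chr17:26508523-26508722 (minus strand) for Dusp1, chr19:53528895-53529094 (plus strand) for Dusp5 and chr10:99262981-99263180 (plus strand) for Dusp6. Capitals mark matches to the motifs searched.
Dusp1: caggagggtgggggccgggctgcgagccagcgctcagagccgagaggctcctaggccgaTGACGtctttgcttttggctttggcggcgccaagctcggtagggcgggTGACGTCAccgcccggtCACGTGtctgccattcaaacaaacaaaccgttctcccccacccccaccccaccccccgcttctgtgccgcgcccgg
Dusp5: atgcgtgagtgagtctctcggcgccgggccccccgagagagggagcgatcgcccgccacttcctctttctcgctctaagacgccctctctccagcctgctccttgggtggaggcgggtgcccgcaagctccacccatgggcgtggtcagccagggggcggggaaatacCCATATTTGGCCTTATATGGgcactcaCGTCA
Dusp6: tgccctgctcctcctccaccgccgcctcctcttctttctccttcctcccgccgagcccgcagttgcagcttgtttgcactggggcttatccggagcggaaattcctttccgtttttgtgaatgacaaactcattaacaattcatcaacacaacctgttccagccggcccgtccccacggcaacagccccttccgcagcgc
The Dusp1 stretch holds a cAMP response element (TGACGTCA) that starts 143 bases before the start site, a further copy of its core (TGACG) at 191 bases and an E box (CACGTG) at 126 bases. The core was also counted on each strand of the full element. In the Dusp5 stretch, 2 adjacent CArG boxes start at 82 and 72 bases, and a TGACG core read on the other strand starts at 55 bases. No match stood in the Dusp6 stretch.

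Motifs were searched on both strands of the 300 bases from 250 before to 50 after each start. Of 32851 RefSeq promoters, 1.79% held the full cAMP response element, 20.8% its TGACG core, 7.15% the E box and 1.63% a CArG box, the binding sequence of serum response factor. The other motifs were an ETS core (CCGGAA, 14.9%), an AP-1 site (TGANTCA, 7.81%), a glucocorticoid response element (0.475%) and TATAAA (13.6%). Among the 7 of 10 genes whose RefSeq promoters were kept for this description, the one further match was an ETS core 34 bases after the start of Spry2. Spry1, Spred1 and Etv5 had no match in this window. Dusp4, Spry4 and Etv4 had no promoter among those kept. Promoters on chromosome 18, where Spry4 lies, had been left out, so nothing is said here of Spry4. A match is a description of the letters and not evidence of binding.

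Levels are the authors' cuffnorm-normalized counts, which scale with gene length as well as abundance. Deposited totals were 35.4 to 42.8 M in CLDN1 mAb, 29.7 to 42.1 M in vehicle and 48.2 to 74.6 M in regular diet libraries, the highest being regular diet mouse 1. The spacing of the low values put the depth at about 27.7 to 59.5 M fragments per library, and at that depth each of the 10 genes had a value above 0 in every library. The livers carried hepatocyte transcripts throughout: Apoa1, the main HDL apolipoprotein gene, averaged 362300 normalized counts in CLDN1 mAb, 236700 in vehicle and 660100 in regular diet livers. Albumin (Alb) had an entry of 0 in each of the 17 libraries, which in such a table can be a failed estimate. All 10 feedback genes passed the filter on low values. Their changes were tested with a limma-trend model on log2(value + 1), which makes the change of a gene with low values look smaller, with Benjamini-Hochberg adjustment over 18624 genes and a threshold of 0.05. Every adjusted p below is from limma, every fold change is a log2 difference on that scale with its standard error, and p-values rest on the spread among the mice sampled.

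Against regular diet, 7 of the 10 genes were higher in vehicle livers, 1 was lower and 2 did not pass. Dusp4, Dusp5, Spry1, Spry2, Spred1, Etv4 and Etv5 were higher, Dusp1 was lower, and Dusp6 and Spry4 did not pass. The same genes fell into the same classes in CLDN1 mAb against regular diet livers, a comparison that shares the regular diet libraries with the first. Etv4, under 10 in every regular diet library, passed the filter on low values through the CLDN1 mAb and vehicle libraries alone. Its call in both comparisons is therefore a description. Between CLDN1 mAb and vehicle livers 0 of the 10 genes passed.

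Changes of this kind were common in the model. In vehicle against regular diet livers 50.5% of all genes tested passed, 29.8% higher and 20.7% lower, and in CLDN1 mAb against regular diet livers 38.9% passed, 24.8% higher and 14.1% lower. The median log2 fold change of the 10 genes was 1.20 in vehicle against regular diet livers, beside 0.04 over all genes tested. In CLDN1 mAb against regular diet livers the medians were 0.96 for the 10 genes and 0.01 for all genes tested. Of the 10 genes, 6 were higher with no overlap between vehicle and regular diet mice, as were 19.1% of all genes tested. In CLDN1 mAb against regular diet mice 6 were higher and 1 lower without overlap, beside 18.6% and 10.4% of all genes tested. Etv4 is included in both counts of 6 and in both medians of the 10 genes.

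**Figure D1:**
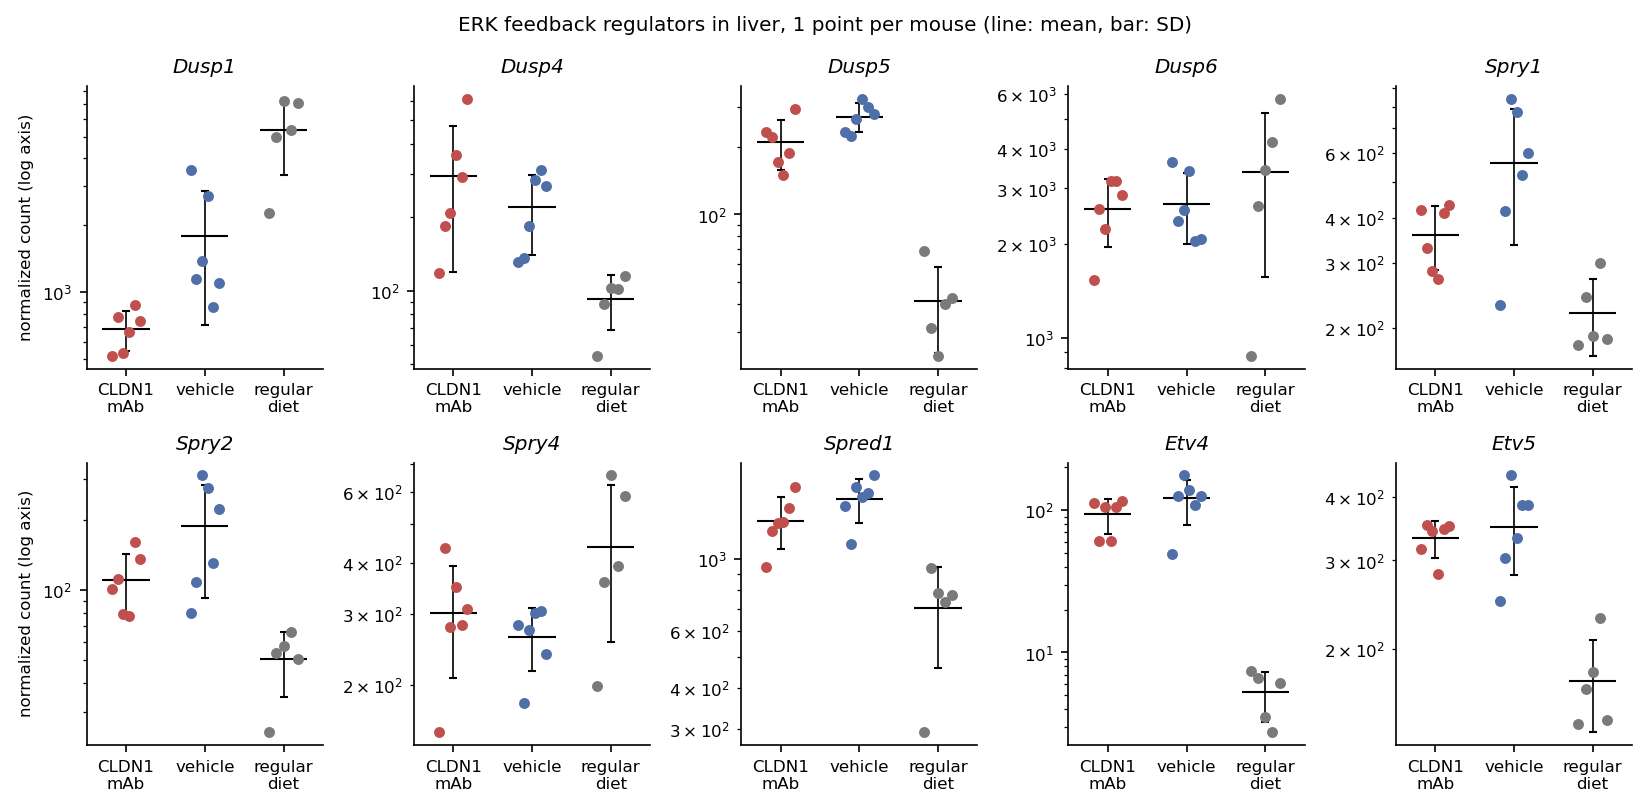
Normalized count of each of the 10 genes in every mouse (log axis), by group: CLDN1 mAb (n = 6), vehicle (n = 6) and regular diet (n = 5), with a line at each group mean and a bar for the SD. Etv4 and Dusp5 stand far below the other groups in all 5 regular diet mice, Dusp1 stands above them in most, and Dusp6 overlaps throughout.

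Of the phosphatase genes, 1 was lower, 2 were higher and 1 did not pass against regular diet. Dusp1 (ENSMUSG00000024190, chr17:26505590-26562128, minus strand, build GRCm38), a nuclear phosphatase that acts on p38 and JNK as well as ERK, ranged from 518 to 879 normalized counts in CLDN1 mAb livers, with a median of 704. In vehicle livers it ranged from 855 to 3537 with a median of 1264, and in regular diet mice 1 to 5 it stood at 2267, 4986, 7224, 5381 and 7120. Vehicle mice 1 and 4, at 3537 and 2709, reached into the regular diet range, whereas the other 4 vehicle mice and all CLDN1 mAb mice stood below its lowest value. Dusp1 was lower than in regular diet livers in both groups, with a log2 fold change of -1.68 ± 0.35 in vehicle (adjusted p = 6.36e-04) and of -2.89 ± 0.35 in CLDN1 mAb livers (adjusted p = 3.82e-06). With every library scaled to the same total the first of these came to -1.06 (adjusted p = 0.0333). Its annotated exons share 11 bases with Ergic1 on the other strand, and strand was not stated for the counting.

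Dusp5 (ENSMUSG00000034765, chr19:53529109-53542431, plus strand), a nuclear phosphatase selective for ERK, ranged from 150 to 295 normalized counts in CLDN1 mAb livers (median 204) and from 224 to 326 in vehicle livers (median 273). In regular diet mice 1 to 5 it stood at 68.8, 31.5, 23.6, 39.9 and 42.8. No vehicle or CLDN1 mAb mouse overlapped with a regular diet mouse. The log2 fold change was 2.76 ± 0.24 in vehicle against regular diet livers (adjusted p = 6.35e-08) and 2.37 ± 0.24 in CLDN1 mAb against regular diet livers (adjusted p = 5.38e-07). Under quantile normalization these came to 2.02 and 1.73, and with the same total per library to 3.38 and 2.80, and all passed. An antisense gene, AC137853.2, shares 547 exonic bases with Dusp5, and reads of the 2 genes cannot be separated without strand, so its level is uncertain to that extent.

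Dusp4 (ENSMUSG00000031530, chr8:34807297-34819894, plus strand), another nuclear phosphatase of ERK, ranged from 118 to 611 normalized counts in CLDN1 mAb livers, with a median of 250. It ranged from 131 to 313 in vehicle livers (median 226). In regular diet mice 1 to 5 it stood at 54.0, 87.9, 102, 102 and 115. Within the vehicle and CLDN1 mAb groups the values separated by library code without overlap. Mice 1 to 3, with codes below the regular diet block, stood at 131, 136 and 184 (vehicle) and 118, 184 and 207.5 (CLDN1 mAb). Mice 4 to 6, with codes above that block, stood at 283, 313 and 268.5 (vehicle) and 361, 292 and 611 (CLDN1 mAb). The cause of this separation was not tested. All 12 treated mice were above all 5 regular diet mice. The log2 fold change was 1.20 ± 0.36 in vehicle against regular diet livers (adjusted p = 0.0100) and 1.52 ± 0.36 in CLDN1 mAb against regular diet livers (adjusted p = 0.00277). Under quantile normalization the first did not pass (0.45, adjusted p = 0.268). The second came to 0.90 there (adjusted p = 0.04), and with the same total per library the values were 1.82 and 1.95.

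Dusp6 (ENSMUSG00000019960, chr10:99263231-99267489, plus strand), the cytoplasmic phosphatase selective for ERK and a widely used readout of ERK activity, did not differ beyond the spread between mice. It ranged from 1528 to 3181 normalized counts in CLDN1 mAb livers (median 2711) and from 2039 to 3651 in vehicle livers (median 2458). Regular diet mice 1 to 5 stood at 877, 2640, 3438, 4219 and 5802, so that this group alone reached both below and above all the others. The log2 fold change in vehicle against regular diet livers was -0.14 ± 0.36 (adjusted p = 0.778), with a 95% interval from -0.89 to 0.61, and in CLDN1 mAb against regular diet livers it was -0.19 (adjusted p = 0.707). These values depend on the scaling and on single mice. With every library scaled to the same total they came to 0.49 and 0.25. Without regular diet mouse 1 they came to -0.56 (adjusted p = 0.0566) and -0.62 (adjusted p = 0.0442), and the second then passed. That mouse was the lowest of its group in 8 of the 10 genes and the highest in the other two, Dusp5 and Etv4, and it had the highest deposited total.

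**Figure D2:**
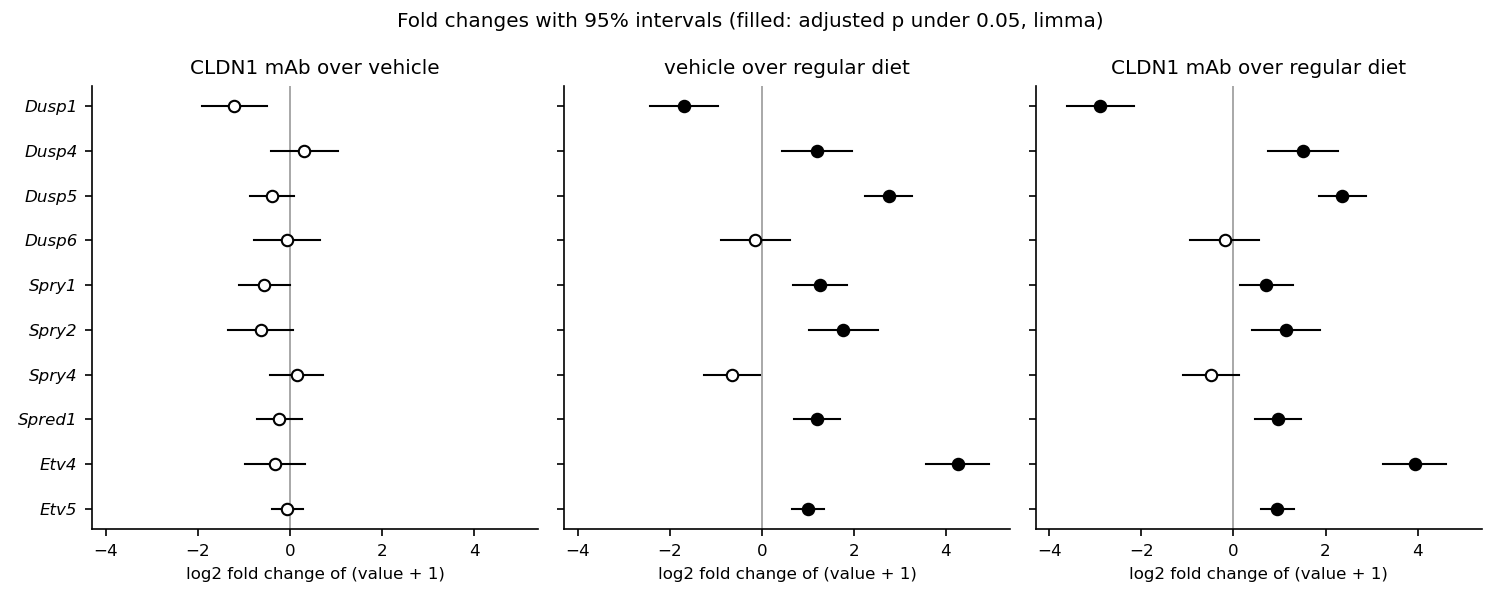
Log2 fold change with its 95% interval from limma for each of the 10 genes in CLDN1 mAb against vehicle, vehicle against regular diet and CLDN1 mAb against regular diet livers. Etv4 has the largest difference from regular diet. Dusp1 is the gene below 0 against regular diet with an interval clear of 0 in both comparisons. Against vehicle 8 of the 10 genes lie below 0, and none of the 10 passed.

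Among the Sprouty genes, Spry1 and Spry2 were higher than in regular diet livers and Spry4 did not pass. Spry1 (ENSMUSG00000037211, chr3:37639947-37644598, plus strand) ranged from 271 to 432 normalized counts in CLDN1 mAb livers (median 372) and from 232 to 842 in vehicle livers (median 561). It stood at 179, 243, 190, 300 and 186 in regular diet mice 1 to 5, which overlapped with both other groups. Spry1 was higher in vehicle livers against regular diet (1.27 ± 0.27, adjusted p = 8.98e-04), a value that came to 0.79 under quantile normalization and 1.89 with every library scaled to the same total and passed in both. In CLDN1 mAb against regular diet livers it passed narrowly (0.71 ± 0.27, adjusted p = 0.0485) and no longer passed in 14 of 21 alternative settings. An antisense gene that shares 710 of its exonic bases, Gm42922, was itself at 3.84 or less in every library.

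Spry2 (ENSMUSG00000022114, chr14:105891947-105896819, minus strand) ranged from 77.8 to 161 normalized counts in CLDN1 mAb livers (median 106) and from 79.5 to 311 in vehicle livers (median 176). It stood at 24.6, 53.8, 57.8, 66.1 and 50.4 in regular diet mice 1 to 5, below every other mouse. Spry2 was higher by 1.77 ± 0.35 in vehicle (adjusted p = 4.37e-04) and by 1.14 ± 0.35 in CLDN1 mAb livers (adjusted p = 0.0160) against regular diet, although under quantile normalization the second did not pass (0.50, adjusted p = 0.191) and the first came to 1.04 (adjusted p = 0.00707). Scaling every library to the same total gave 2.39 and 1.57.

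Spry4, which like the other Sprouty proteins restrains receptor signalling to RAS and RAF, did not pass in either comparison with regular diet. This gene (ENSMUSG00000024427, chr18:38586247-38601415, minus strand) ranged from 153 to 435 normalized counts in CLDN1 mAb livers (median 295) and from 181 to 305 in vehicle livers (median 278). Its values in regular diet mice 1 to 5 were 199, 360, 658, 392 and 587, with mouse 1 inside and the other 4 mice above the vehicle range. The difference between vehicle and regular diet livers was -0.64 ± 0.29 (adjusted p = 0.0744) and did not pass. It passed under quantile normalization (-1.12, adjusted p = 0.00279), with median-of-ratios size factors (-0.70, adjusted p = 0.0467) and without regular diet mouse 1 (-0.89, adjusted p = 0.00657), but came to -0.02 with every library scaled to the same total. In CLDN1 mAb against regular diet livers Spry4 stood at -0.49 (adjusted p = 0.191), at -0.75 without regular diet mouse 1 (adjusted p = 0.0224) and at -0.85 under quantile normalization (adjusted p = 0.0213).

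Spred1 (ENSMUSG00000027351, chr2:117121374-117182279, plus strand), which brings the RAS inhibitor neurofibromin to the membrane, ranged from 947 to 1664 normalized counts in CLDN1 mAb livers (median 1298). It ranged from 1108 to 1809 in vehicle livers (median 1573) and stood at 292, 937, 782, 738 and 772 in regular diet mice 1 to 5. All 12 treated mice were above all 5 regular diet mice. The log2 fold change was 1.20 ± 0.24 in vehicle (adjusted p = 4.29e-04) and 0.97 ± 0.24 in CLDN1 mAb livers (adjusted p = 0.00345) against regular diet. With the same total per library these came to 1.83 and 1.41, and both passed. With 1 mouse left out they fell as low as 0.91 and 0.68, and passed each time.

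The ETS factor genes were both higher in the model. Etv4 (ENSMUSG00000017724, chr11:101769742-101785371, minus strand) ranged from 60.6 to 116 normalized counts in CLDN1 mAb livers (median 106) and from 49.1 to 176 in vehicle livers (median 126). In regular diet mice 1 to 5 it was under 10 throughout, at 7.37, 6.56, 3.50, 2.75 and 6.11. Etv4 therefore passed the filter on low values through the CLDN1 mAb and vehicle libraries alone, so its p and rank against regular diet are given as descriptions. Its log2 fold change, the largest of the 10, was 4.26 ± 0.33 in vehicle against regular diet livers (adjusted p = 1.58e-08), which placed it at rank 211 by p among 18624 genes, and 3.94 ± 0.33 in CLDN1 mAb against regular diet livers (adjusted p = 5.40e-08). Because log2(value + 1) compresses such low levels, these figures depend on the pseudocount, and the first came to 3.03 with a pseudocount of 10. Scaling every library to the same total gave 4.82.

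Etv5 (ENSMUSG00000013089, chr16:22381309-22439719, minus strand), its close relative, ranged from 282 to 352 normalized counts in CLDN1 mAb livers (median 345) and from 249 to 442 in vehicle livers (median 359). The values in regular diet mice 1 to 5 were 142.5, 167, 180, 231 and 145, all below the treated mice. Its log2 fold change was 1.01 ± 0.17 in vehicle (adjusted p = 7.95e-05) and 0.95 ± 0.17 in CLDN1 mAb livers (adjusted p = 2.00e-04) against regular diet. The size depends on the scaling: under quantile normalization it came to 0.39 in vehicle (adjusted p = 0.0371) and 0.41 in CLDN1 mAb livers (adjusted p = 0.0383), and with the same total per library to 1.63 and 1.39. In bulk tissue, fewer cells of a type and less RNA per cell cannot be told apart, and the same holds for more cells and more RNA.

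Between CLDN1 mAb and vehicle livers, 0 of 10 feedback genes and 0 of 18624 genes (0%) passed in the limma fit. At an unadjusted p under 0.05, 2 of the 10 genes stood out, Dusp1 and Spry1, beside 7.47% of all genes tested (1391 genes). The groups overlapped in all 10 genes, and 0.322% of all genes tested had no overlap. The log2 difference was below 0 for 8 of the 10 genes, with a median of -0.27 beside -0.05 over all genes tested. Dusp6 and Etv5 are among these at -0.06 each, and both turned sign in some alternative settings. The share of all genes below 0 was not counted.

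Dusp1 was the furthest of the 10 in that comparison, at 686 ± 142 normalized counts in CLDN1 mAb and 1789 ± 1080 in vehicle livers (SD, n = 6 each). The log2 difference was -1.21 ± 0.33, with a 95% interval from -1.91 to -0.51, an unadjusted p of 0.00198 and an adjusted p of 0.659. Dusp1 stood at rank 43 by p among the 18624 genes. For Dusp1, 6 of 6 CLDN1 mAb mice lay below the vehicle median, and 5 of 6 lay below the lowest vehicle mouse. No CLDN1 mAb mouse was above the vehicle median for Spry1, Spry2, Etv4 or Etv5 either. How many of all genes show either pattern was not counted. The size rests in part on vehicle mice 1 and 4: without both the difference was -0.71 (adjusted p = 0.56), a setting chosen after the values were seen. Within the libraries coded 25 to 30 it was -1.57, and within those coded 36 to 42 it was -0.85.

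Spry1 averaged 359 ± 71.4 normalized counts in CLDN1 mAb and 564 ± 227 in vehicle livers, a log2 difference of -0.56 ± 0.26 (adjusted p = 0.659 by limma). Spry2 averaged 111 ± 32.7 in CLDN1 mAb and 188 ± 95.4 in vehicle livers, a difference of -0.63 ± 0.34 (adjusted p = 0.665), and Dusp5 averaged 210 ± 51.9 in CLDN1 mAb and 271 ± 39.4 in vehicle livers (-0.39 ± 0.23, adjusted p = 0.677). None of the 3 passed, and their groups overlapped.

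The remaining genes lay nearer to 0. Dusp4 differed by 0.31 ± 0.34, Spry4 by 0.15 ± 0.28, Spred1 by -0.23 ± 0.23 and Etv4 by -0.32 ± 0.31. Dusp6 differed by -0.06 ± 0.34, with a 95% interval from -0.77 to 0.66, and Etv5 by -0.06 ± 0.16. The interval of Dusp6 leaves room for a change of over 0.5 on the log2 scale in either direction, so these mice do not show that the level was the same.

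Per kilobase of annotated exon, the 10 genes were ranked by their mean in each group. In CLDN1 mAb livers Dusp6 led with 826 normalized counts per kb, followed by Dusp1 at 207 and Spred1 at 193, and Etv4 was last at 30.2. In vehicle livers Dusp6 stood at 856, Dusp1 at 540, Spred1 at 226 and Etv4 at 38.95. In regular diet livers Dusp1 was first at 1630, Dusp6 second at 1084 and Etv4 last at 1.69. The mean of the highest gene was 27.4 times that of the lowest in CLDN1 mAb, 22.0 times in vehicle and 962 times in regular diet livers. The last ratio rests on Etv4, at only 2.75 to 7.37 normalized counts in regular diet libraries, so its size is imprecise.

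Neighbours in that order mostly did not differ beyond their spread. In CLDN1 mAb livers Dusp6 and Dusp1 were the one neighbouring pair without overlap, and in vehicle livers every neighbouring pair overlapped. In regular diet livers the pairs without overlap were Dusp6 above Spred1, Spry1 above Etv5 and Dusp5 above Etv4. The middle of the order in regular diet livers ran Spred1 (104 per kb), Spry4 (92.4), Spry1 (75.6), Etv5 (42.2), Dusp4 (33.6), Spry2 (24.2) and Dusp5 (16.7). Dusp5 held rank 9 there, whereas in vehicle livers, at 110 per kb, it held rank 5.

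**Figure D3:**
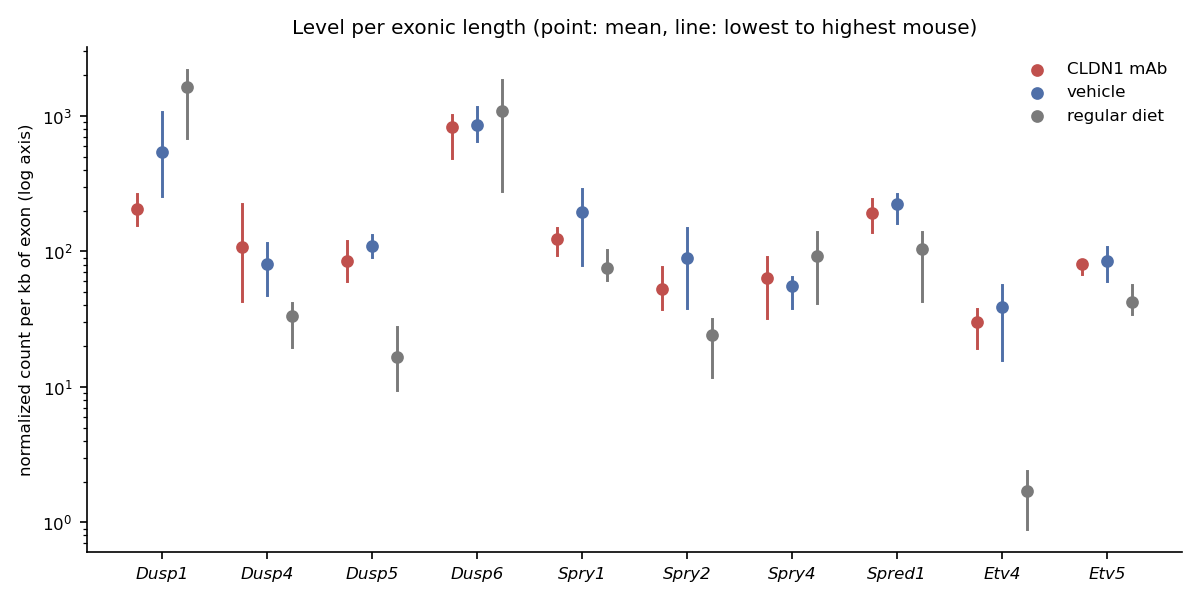
Mean normalized count per kilobase of annotated exon for each gene (log axis), by group, with a line through the lowest and highest mouse. Etv4 at 1.69 per kb in regular diet livers lies far below its level in CLDN1 mAb (30.2) and vehicle livers (38.95), and Dusp1 and Dusp6 are the first and second genes in all 3 groups, in different order.

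Mouse by mouse, Dusp6 moved with Dusp1 inside the treated groups. Over the 12 CLDN1 mAb and vehicle mice, with each group's mean removed, Pearson's r between the 2 genes was 0.821 (permutation p = 0.00023, adjusted over the 9 pairs 0.00207) and Spearman's rho was 0.895 (permutation p = 0.00046, adjusted 0.00414). Without the 2 mice farthest from the median of Dusp6, CLDN1 mAb mouse 1 and vehicle mouse 1, r was 0.893. Within the 6 CLDN1 mAb mice r was 0.793, and within the 6 vehicle mice it was 0.984. With every library scaled to the same total r was 0.824. The mice share the scaling and depth of their libraries between both genes, and whether those move the relation beyond this check was not tested. The shuffles did not keep the library code ranges apart. How many of all genes follow Dusp6 this closely over these mice was not counted, so the value is not shown to be particular to Dusp1.

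None of the other 8 pairs with Dusp6 passed. Spry4 came nearest, with r = 0.611 and rho = 0.524 (permutation p = 0.0633 and 0.0917, adjusted 0.285 and 0.413), and r fell to 0.309 without the 2 farthest mice, so the value rests on them. Etv4 and Etv5, the ETS factors, had r of -0.421 and -0.398 with Dusp6 (adjusted permutation p = 0.442 for both), signs that turned under the same total per library (0.0446 and 0.199).

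**Figure D4:**
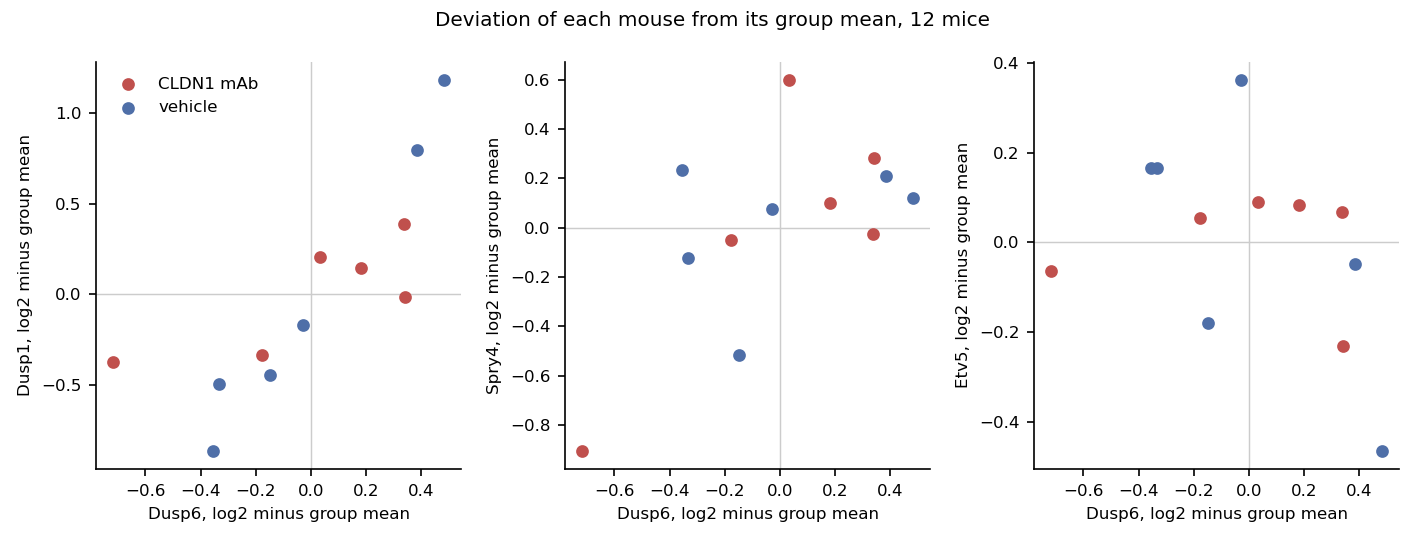
Deviation of Dusp1, Spry4 and Etv5 from the group mean against that of Dusp6, both as log2(value + 1) minus the group mean, for each CLDN1 mAb (n = 6) and vehicle (n = 6) mouse. The points follow a rising line for Dusp1 (r = 0.821), scatter more for Spry4 (r = 0.611) and show no rise for Etv5 (r = -0.398).

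The protein-coding genes whose deviations from the group means were most like those of Dusp6 over all 17 libraries, out of 12576 candidates, were Irak2 (r = 0.952), Wrnip1 (0.933), Pcmtd2 (0.92), Pdk4 (0.92) and Fam107b (0.917). Regular diet mouse 1 adds to these values, which ran from 0.812 to 0.894 without it. For Dusp1 they were Zfp943 (0.884), Zfp317 (0.878), Ccdc66 (0.873), Zfp420 (0.86) and Srsf11 (0.851). These are descriptions of the highest values among many and carry no test.

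Around the 10 genes, the wider phosphatase and feedback families were counted in the same fit. Beside these lists and those that follow, 50.5% of all genes tested passed in vehicle and 38.9% in CLDN1 mAb against regular diet livers. Of 6 other Dusp genes for MAP kinases, 5 were higher and 1 was lower in vehicle livers against regular diet, with a median log2 fold change of 1.54. Dusp9, a cytoplasmic ERK phosphatase, averaged 59.1 ± 30.7 normalized counts in vehicle and 1.51 ± 1.76 in regular diet livers (4.74, adjusted p = 1.24e-07), and Dusp2, a nuclear phosphatase of immune cells, 128 ± 40.2 in vehicle and 13.6 ± 7.35 in regular diet livers (3.44). Dusp9, at 3.94 or less in every regular diet library, passed the filter on low values through the CLDN1 mAb and vehicle libraries alone. Dusp8 was higher (1.82), while Dusp16, a phosphatase of JNK and p38, was the one lower gene (-0.53, adjusted p = 0.0401). Among the same 6 genes, 5 were higher, 0 lower and 1 did not pass in CLDN1 mAb against regular diet livers.

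Of 5 further feedback regulators tested, 4 were higher and 1 was lower in vehicle livers against regular diet. In CLDN1 mAb livers 2 were higher, 1 was lower and 2 did not pass. Il17rd, an inhibitor of FGF signalling, was higher by 2.17 and Etv1, another ETS factor of the same subfamily, by 1.69. Errfi1, an inhibitor of the EGF receptor, was lower (-1.78, adjusted p = 6.53e-04), at 18560 ± 10010 normalized counts in vehicle and 58650 ± 17290 in regular diet livers. Errfi1, Dusp1 and Dusp16 were thus lower in vehicle against regular diet livers, while most other genes of these families were higher.

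Of 10 listed ERK target genes, 6 were higher, 0 lower and 4 did not pass in vehicle against regular diet livers. Over all genes tested, 50.5% passed there and 38.9% in CLDN1 mAb against regular diet livers. Ccnd1, the cyclin D1 gene, averaged 9239 ± 2134 normalized counts in vehicle and 1060 ± 412 in regular diet livers (3.18, adjusted p = 7.21e-09). Plaur, the urokinase receptor gene (4.47), and Ier3, an immediate early response gene (3.85), were higher too. For CLDN1 mAb against regular diet livers 6 were higher, 1, Epha2, was lower (-0.64, adjusted p = 0.0099), and 3 did not pass.

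Of 20 genes of the cascade itself, 4 were higher, 4 lower and 12 did not pass in vehicle against regular diet livers, where 50.5% of all genes tested passed, and the median of the list was -0.07. Mapk3, the ERK1 gene, was higher (1.24, adjusted p = 1.51e-05), as were Nras (0.73) and Rasa2, a RAS GTPase-activating protein gene (1.19), and Map2k2, the MEK2 gene, was lower (-1.17). Set against regular diet, CLDN1 mAb livers had 2 higher, 1 lower and 17 not passing. Of 14 growth factor receptor genes and co-receptors, 7 were higher, 6 lower and 1 did not pass in vehicle livers, among them Fgfr1 (1.63) and Pdgfrb (2.59), both higher, and Klb, the co-receptor for FGF hormones in hepatocytes (-1.83). The counts in CLDN1 mAb livers were 6 higher, 4 lower and 4 not passing. Between CLDN1 mAb and vehicle livers 0 genes of any of these lists passed.

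**Figure D5:**
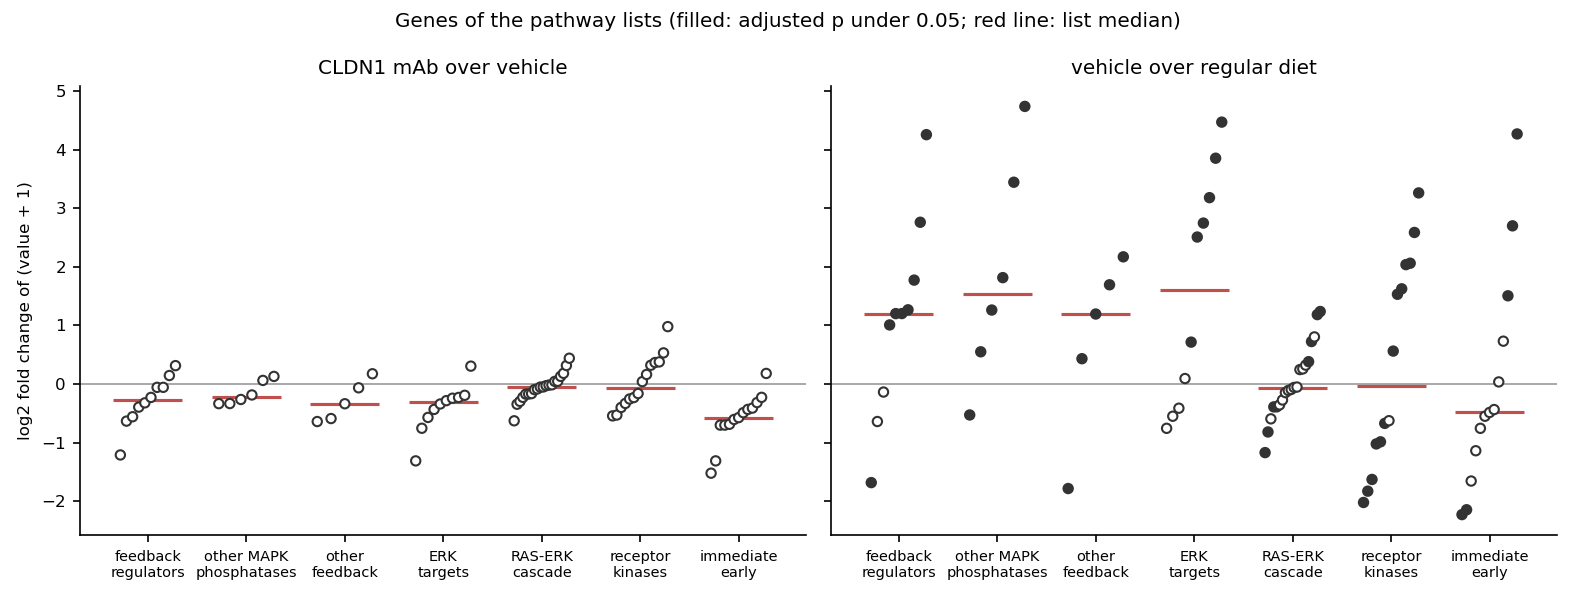
Log2 fold change of every tested gene of 7 pathway lists, 1 point per gene, in CLDN1 mAb over vehicle and vehicle over regular diet livers, with filled points for an adjusted p under 0.05 (limma) and a red line at each list's median. No point is filled in CLDN1 mAb over vehicle, and in vehicle over regular diet the medians of the 10 feedback genes (1.20) and the other Dusp genes (1.54) lie above that of the cascade genes (-0.07).

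Immediate early genes, glucocorticoid targets and clock genes are given beside the Dusp1 result, and their part in it was not tested. Of 13 immediate early genes, 3 were higher, 2 lower and 8 did not pass in vehicle against regular diet livers, beside 50.5% of all genes tested that passed. In CLDN1 mAb against regular diet livers 2 were higher, 4 lower and 7 did not pass, and between CLDN1 mAb and vehicle livers 0 passed. Ier2 was lower in vehicle livers (-2.15, adjusted p = 1.56e-04), whereas Egr2 (4.27) and Atf3 (2.70) were higher. The summed level of the list ran from 11430 to 20510 normalized counts in CLDN1 mAb, from 16630 to 42610 in vehicle and from 9318 to 95830 in regular diet livers. Between CLDN1 mAb and vehicle livers the median of the list was -0.57, beside -0.05 over all genes tested. Fos averaged 356 ± 109 normalized counts in CLDN1 mAb and 1152 ± 960 in vehicle livers, a difference of -1.31 that did not pass (adjusted p = 0.694).

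Of 9 glucocorticoid-responsive genes, 4 were higher, 2 lower and 3 did not pass in vehicle against regular diet livers, and 3, 2 and 4 in CLDN1 mAb livers. Beside this list and the clock genes, 50.5% of all genes tested passed in vehicle and 38.9% in CLDN1 mAb livers. The metallothionein genes Mt2 (5.09) and Mt1 (3.99) were higher and Tat, the tyrosine aminotransferase gene, was lower (-2.92). The summed level ran from 52680 to 141100 normalized counts in CLDN1 mAb, from 44710 to 163900 in vehicle and from 95690 to 424500 in regular diet livers. This sum is carried mainly by Tat and Pck1, which averaged 21840 and 37340 in vehicle and 137000 and 141700 in regular diet livers. The median log2 fold change of the list was above 0, at 0.68 in vehicle and 0.23 in CLDN1 mAb against regular diet livers. Tat is also counted among the hepatocyte markers below. Of 11 clock genes, 4 were higher, 4 lower and 3 did not pass in vehicle livers, and 5, 4 and 2 in CLDN1 mAb livers. Dbp, an output gene of the clock, was higher (3.01), and Cry1 (-1.78) and Arntl (-2.33), core clock genes, were lower in vehicle livers against regular diet. The clock list summed to 16610 to 31140 in CLDN1 mAb, 13850 to 26920 in vehicle and 7743 to 25170 in regular diet livers, and the hour at which tissue was taken is not given in the sources used here.

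Markers of cell types moved with the same contrast, and their part in the results for the feedback genes was not tested. Beside the counts of every marker list, 50.5% of all genes tested passed in vehicle and 38.9% in CLDN1 mAb against regular diet livers. Of 9 hepatocyte markers tested, 0 were higher, 7 lower and 2 did not pass in vehicle against regular diet livers, Cps1 (-2.60) and Hnf4a (-1.15) among the lower ones, and 1, 4 and 4 in CLDN1 mAb livers. The 1 called higher was Serpina1e (7.75, adjusted p = 0.0463, limma), a call that rests on entries of 0. Its regular diet median was 0 and its highest value 322100, and its mean was 109200 there and 36190 in CLDN1 mAb livers. The hepatocyte markers summed to 962400 to 1637000 normalized counts in CLDN1 mAb, 443900 to 1498000 in vehicle and 1987000 to 3888000 in regular diet livers, with Alb at 0. All 8 cholangiocyte markers were higher in both comparisons, Spp1 by 4.75, Epcam by 4.71 and Cldn4 by 5.52 in vehicle livers, and summed to 46580 to 85120 in CLDN1 mAb, 53090 to 108100 in vehicle and 6596 to 9021 in regular diet livers. Of 8 macrophage markers 7 were higher and 1 did not pass in both comparisons, Gpnmb (9.01), Itgax (6.40) and Trem2 (4.69) among them, with sums of 95850 to 163700 in CLDN1 mAb, 57460 to 246100 in vehicle and 4525 to 15940 in regular diet livers.

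Of 8 stellate cell and fibroblast markers 7 were higher and 1 did not pass in both comparisons, Col1a1 (5.04), Lum (4.45) and Col3a1 (3.93) among them in vehicle livers, and the list summed to 25850 to 89530 in CLDN1 mAb, 30800 to 129200 in vehicle and 9671 to 15550 in regular diet livers. Lymphocyte markers were higher for 5 of 8 genes in both comparisons, Klrd1 (3.55), Cd8a (3.10) and Cd3e (2.49) among them, with sums of 827.1 to 1959 in CLDN1 mAb, 939.9 to 2007 in vehicle and 386.7 to 864.7 in regular diet livers. Neutrophil markers were higher for 5 of 5 tested genes in vehicle and 4 of 5 in CLDN1 mAb livers, S100a8 (2.95), Csf3r (2.75) and S100a9 (2.54) among them, and summed to 979.7 to 1564 in CLDN1 mAb, 1096 to 3305 in vehicle and 147 to 707.5 in regular diet livers. Of 8 endothelial markers 0 were higher, 2 lower (Kdr, -1.63, and Clec4g, -1.39) and 6 did not pass in vehicle livers, and 0, 3 and 5 in CLDN1 mAb livers, with sums of 3841 to 14090 in CLDN1 mAb, 3155 to 18130 in vehicle and 12490 to 16360 in regular diet livers. All 6 proliferation markers were higher in both comparisons, Ccnb1 by 4.22, Mki67 by 3.66 and Cdk1 by 2.88 in vehicle livers, with sums of 3153 to 4461 in CLDN1 mAb, 3789 to 5049 in vehicle and 965.3 to 1333 in regular diet livers. Between CLDN1 mAb and vehicle livers 0 genes of these marker lists passed.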

How the data were processed

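RNA sequencing had been done on liver from 17 mice, 1 library per mouse, grouped by the sample titles. The authors deposited 1 table of cuffnorm-normalized counts, per the labels, used as a signal for each gene in each library. Cufflinks 2.2.1 and build mm10 come from the submitters' processing notes. The sources used here do not give the aligner, annotation, strand or scaling option. These are not raw counts, and fragments could not be recovered for every gene, so no count model was used. Symbols were matched for 52398 of 52545 identifiers (99.7%). Coordinates, exon lengths and overlaps came from GENCODE M21 on GRCm38, and promoters from RefSeq.

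The 18624 genes that reached 10 in no fewer than 5 libraries were fitted as log2(value + 1) with limma-trend (limma 3.58.1, R 4.3.3), group as the one term, all 17 libraries, two-sided, Benjamini-Hochberg adjusted, threshold 0.05. The procedure was tested on simulated data. Correlations used 100000 permutations within groups. All 10 genes were named, and from each list up to 3 past the threshold with the smallest p in vehicle against regular diet, plus 1 of the opposite direction. Likeness used genes with a mean of at least 50. Epha2, Fos and Serpina1e were named after their values were seen, and the CArG box was added after the sequences were seen. The 10 genes and all lists were chosen with earlier results of these data known. Other scalings, filters, pseudocounts, left-out mice, code ranges and a replicate block were tried as alternatives. The number of mice limits the precision.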

Additional observations from a re-analysis of the deposited data

How the results depend on the processing

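Across the alternatives, the genes higher against regular diet kept their direction in every setting, and Dusp1 stayed lower and past the threshold. Spry1 in CLDN1 mAb livers, Spry2 and Dusp4 lost calls as stated above. Some values near 0 turned sign. For Dusp6 in CLDN1 mAb against vehicle livers the value ran from -0.13 to 0.087 when 1 mouse was left out (above 0 without vehicle mouse 1 or 4 or CLDN1 mAb mouse 1), and was -0.45 in codes 25 to 30, 0.33 in codes 36 to 42 and 0.16 without vehicle mice 1 and 4. For Etv5 it was 0.019 under quantile normalization, 0.065 in codes 25 to 30 and -0.15 to 0.016 with 1 mouse left out (above 0 without vehicle mouse 3), and for Spry4 it was -0.038 with the same total. Dusp6 in vehicle against regular diet livers was 0.49 with the same total, 0.069 under quantile normalization and -0.56 to 0.12 with 1 mouse left out (above 0 without regular diet mouse 4 or 5). In CLDN1 mAb against regular diet livers it was 0.25 with the same total and -0.62 to 0.061 with 1 mouse left out (above 0 without regular diet mouse 5). With the same total, r with Dusp6 was 0.239 for Dusp5 (-0.198 otherwise), 0.219 for Spry1 (-0.257), 0.0446 for Etv4 and 0.199 for Etv5. The cause was not tested.

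The genes lower in vehicle livers numbered 2 under quantile normalization and with median-of-ratios size factors, and 2 in CLDN1 mAb livers under quantile normalization. Leaving out 1 mouse gave 1 to 2 lower and 7 to 7 higher in vehicle livers, 1 to 3 lower and 6 to 7 higher in CLDN1 mAb livers, and 0 to 0 between CLDN1 mAb and vehicle. Over all genes it gave 8486 to 10680, 6342 to 9028 and 0 to 0 calls for vehicle and CLDN1 mAb against regular diet and CLDN1 mAb against vehicle. With no filter 2 genes, Gm37170 and Gm19026, passed between CLDN1 mAb and vehicle. Both lie at the floor of the table. They were at 0 in every CLDN1 mAb library, and in vehicle libraries at 1.17 to 2.59 (Gm37170) and 0.616 to 1.17 (Gm19026).

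With the same total per library the median of all genes moved to 0.65 in vehicle and 0.44 in CLDN1 mAb against regular diet livers, and 88.1% and 89.5% of calls were higher, beside 59% and 63.7% otherwise and 48.8% and 53.2% under quantile normalization. Replicate numbers name different mice. Same-numbered mice correlated from -0.344 to 0.656, and 2 of 12, 0 of 10 and 2 of 10 libraries (CLDN1 mAb against vehicle, vehicle against regular diet, CLDN1 mAb against regular diet) were best with their own number. The replicate block gave 7 higher and 1 lower gene in vehicle, 6 higher and 1 lower in CLDN1 mAb against regular diet livers (Spry1 0.66, adjusted p = 0.0931, limma) and 0 between CLDN1 mAb and vehicle.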
